A study of Mus musculus with 74 samples.

Results

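Interactions between a captured promoter fragment and a fragment on another chromosome were followed through 3 promoter capture Hi-C lists of the mouse blood progenitor line HPC-7. All listed pairs were taken whose fragments lie on 2 different chromosomes among 1 to 19 and X, with scaffolds and Y left out. They came to 9569 of 130734 interactions in Ery shStag2, 8577 of 123042 in Ery Luc and 465 of 112183 in HPC. Over the 3 lists these were 17698 distinct fragment pairs. HPC-7 grows as stem and progenitor-like cells with stem cell factor (SCF). Ery shStag2 cells carried a hairpin against Stag2, a subunit of cohesin. Ery Luc cells carried a control hairpin against luciferase. Both were given doxycycline, labelled as 72 h for Ery shStag2 and as 72 and 73 h for the libraries of Ery Luc, and erythropoietin (EPO) at 4 U/l with SCF at 20 ng/ul. HPC cells were untransduced progenitors kept in SCF at 100 ng/ul, without doxycycline or EPO in their labels. HPC therefore differs from both Ery lists in differentiation stage and in transduction, which cannot be told apart here. Each list pools 2 libraries. There is no replicate behind any value below, and no test was possible. Intervals are exact binomial intervals at 95% that cover counting error only and take each listed pair as independent.

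In promoter capture Hi-C, chromatin is crosslinked, cut with the restriction enzyme HindIII and religated, so that fragments close together in the nucleus are joined, and probes then pull down joins that hold a promoter. Chromosomes occupy territories of their own, so most joins lie within a chromosome. Contacts between chromosomes are known from places where genes of different chromosomes gather, such as nucleoli and the histone locus bodies that form at replication-dependent histone genes. Cohesin extrudes loops along a chromosome. In a bulk sample the number of cells that hold a contact and its strength in each cell cannot be told apart. The lists hold no expression values, so neither the cell type nor the knockdown of Stag2 was checked in them.

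The promoters below belong to captured fragments that the results turn on. Mad2l1 and Rogdi lie on single fragments with contacts along another chromosome in all 3 lists. A430033K04Rik and Mcm6 lead the regions of chromosomes 5 and 1 that meet in Ery Luc, Haao meets the region of Tet2 in Ery shStag2, and the last 3 belong to histone clusters of chromosomes 3 and 13. Each sequence runs from 250 bases before to 50 after the gene's start and comes from RefSeq on GRCm38.p6, the build also called mm10. Capitals mark matches, on either strand, to the HindIII site AAGCTT, the GATA motif AGATAA, the CCAAT box CCAAT, the TATA box TATAAA or a core of the CTCF motif. No marks overlap in the promoters printed.
Mad2l1 (chr6:66534971-66535270, plus strand): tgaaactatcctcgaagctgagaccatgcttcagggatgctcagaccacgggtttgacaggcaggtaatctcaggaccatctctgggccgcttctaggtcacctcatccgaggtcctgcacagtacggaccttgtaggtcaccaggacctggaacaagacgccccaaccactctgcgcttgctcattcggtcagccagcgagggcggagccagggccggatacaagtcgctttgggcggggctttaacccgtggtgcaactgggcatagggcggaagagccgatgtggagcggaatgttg
Rogdi (chr16:5013504-5013803, minus strand): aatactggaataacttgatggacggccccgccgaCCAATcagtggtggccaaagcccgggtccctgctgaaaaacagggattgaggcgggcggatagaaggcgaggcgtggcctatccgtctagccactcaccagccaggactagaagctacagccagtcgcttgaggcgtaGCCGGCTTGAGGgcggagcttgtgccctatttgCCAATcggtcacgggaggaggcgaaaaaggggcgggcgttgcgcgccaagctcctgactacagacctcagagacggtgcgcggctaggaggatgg
A430033K04Rik (chr5:138622609-138622908, plus strand): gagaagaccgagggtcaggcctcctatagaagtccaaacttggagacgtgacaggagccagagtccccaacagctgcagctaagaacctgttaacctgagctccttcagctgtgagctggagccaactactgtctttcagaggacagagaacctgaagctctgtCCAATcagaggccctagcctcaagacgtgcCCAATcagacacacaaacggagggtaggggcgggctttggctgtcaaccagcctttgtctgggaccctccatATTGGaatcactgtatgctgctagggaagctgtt
Mcm6 (chr1:128359656-128359955, minus strand): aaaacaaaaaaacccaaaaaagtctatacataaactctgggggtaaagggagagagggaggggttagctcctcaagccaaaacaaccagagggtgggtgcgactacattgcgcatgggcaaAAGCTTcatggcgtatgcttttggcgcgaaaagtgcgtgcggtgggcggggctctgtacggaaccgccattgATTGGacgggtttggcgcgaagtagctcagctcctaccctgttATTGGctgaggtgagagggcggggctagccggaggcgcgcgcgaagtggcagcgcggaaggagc
Haao (chr17:83846741-83847040, minus strand): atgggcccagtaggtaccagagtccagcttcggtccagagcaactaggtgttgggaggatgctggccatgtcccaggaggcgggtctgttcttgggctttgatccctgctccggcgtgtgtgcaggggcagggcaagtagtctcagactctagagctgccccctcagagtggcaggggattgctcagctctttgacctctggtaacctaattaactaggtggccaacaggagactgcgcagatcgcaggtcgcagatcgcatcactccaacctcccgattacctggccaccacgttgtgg
H2ac19 (chr3:96240325-96240624, minus strand): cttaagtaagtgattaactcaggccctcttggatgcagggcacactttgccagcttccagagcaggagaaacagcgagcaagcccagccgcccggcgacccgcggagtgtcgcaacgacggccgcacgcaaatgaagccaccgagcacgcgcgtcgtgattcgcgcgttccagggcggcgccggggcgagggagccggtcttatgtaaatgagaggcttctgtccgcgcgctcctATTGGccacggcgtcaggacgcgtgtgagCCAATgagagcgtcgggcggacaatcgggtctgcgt
H3c15 (chr3:96239078-96239377, minus strand): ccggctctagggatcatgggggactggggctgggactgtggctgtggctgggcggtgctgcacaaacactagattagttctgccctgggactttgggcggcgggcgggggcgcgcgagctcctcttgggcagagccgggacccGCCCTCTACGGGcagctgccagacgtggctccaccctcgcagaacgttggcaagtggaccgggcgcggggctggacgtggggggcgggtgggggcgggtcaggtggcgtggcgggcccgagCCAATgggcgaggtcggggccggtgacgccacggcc
H4c6 (chr13:23551619-23551918, minus strand): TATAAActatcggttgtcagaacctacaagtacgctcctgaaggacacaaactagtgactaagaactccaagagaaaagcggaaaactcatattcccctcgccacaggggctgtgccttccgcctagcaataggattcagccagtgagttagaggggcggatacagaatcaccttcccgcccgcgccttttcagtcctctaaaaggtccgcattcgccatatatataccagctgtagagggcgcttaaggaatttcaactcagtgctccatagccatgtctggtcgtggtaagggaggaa
Of 32619 promoters of this length, 7.49% hold the HindIII site, 11.2% the GATA motif, 37.6% the CCAAT box, 13.7% the TATA box and 8.67% the CTCF core. The CCAAT box was matched in 5 of the 8 promoters printed, and the Mcm6 promoter also holds a HindIII site, where 1 captured fragment ends. None of these letters were found in the Mad2l1 and Haao windows.

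Contacts between chromosomes were many in the EPO-induced cells and few in the progenitors. They made up 7.32% of listed interactions in Ery shStag2 (7.18% to 7.46%), 6.97% in Ery Luc (6.83% to 7.11%) and 0.415% in HPC (0.378% to 0.454%). Of the captured fragments in a list, 36.7% had at least 1 such contact in Ery shStag2, 33% in Ery Luc and 1.48% in HPC. The intervals of Ery shStag2 and Ery Luc did not overlap, but they take each listed pair as independent, while many contacts lay in clusters. Without the clusters, set out as blocks below, the share was 6.91% in Ery shStag2, 6.18% in Ery Luc and 0.179% in HPC. The difference between the Ery lists was small beside that from either to HPC. It also turned at a score of at least 7, where the share was 4.44% in Ery shStag2, 4.86% in Ery Luc and 0.758% in HPC. The sources used here give neither the read depth nor the software behind the score, so the part of depth in these shares was not tested.

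The score, which the authors' lists give from 5 upwards, separated 2 kinds of contact in the Ery lists. In Ery cells most contacts between chromosomes sat just above the lowest listed score, with a median of 5.87 in Ery shStag2, 5.86 in Ery Luc and 15.2 in HPC. Scores under 6 held 55.8% of them in Ery shStag2, 54.1% in Ery Luc and 17.6% in HPC. At the other end, 3.48% scored 20 or more in Ery shStag2, 4.31% in Ery Luc and 43.7% in HPC. High-scoring interactions were often between chromosomes in every list: among all interactions scoring 20 or more, 19.2% were in Ery shStag2, 25.2% in Ery Luc and 13.2% in HPC. Among interactions scoring from 5 to under 6, 9.97% were in Ery shStag2, 9.12% in Ery Luc and 0.2% in HPC.

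The 2 kinds also differed in how often a second list held the same fragment pair. Of the Ery shStag2 contacts between chromosomes, 5.54% were in Ery Luc (5.09% to 6.02%), against 45.5% of its contacts within chromosomes. Of those of Ery Luc, 3.87% were in HPC (3.47% to 4.3%), against 45.1% within chromosomes. Of those of HPC, 71.4% were in Ery Luc (67.1% to 75.5%) and 73.8% in Ery shStag2, against 46.1% and 45.4% within chromosomes. The few contacts of progenitors thus mostly recurred, while those of Ery cells mostly did not. Shares between an Ery list and HPC depend on list size. HPC listed 465 contacts between chromosomes against 8577 in Ery Luc, so it could hold only a small part of those of Ery Luc. Within chromosomes the lists were closer in size, with 114194 contacts in Ery Luc and 111601 in HPC.

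Pairs with high scores were shared more often in every list, and the gap was widest in the Ery lists. Of Ery shStag2 contacts scoring from 5 to under 6, 39 of 5344 were in Ery Luc, which is 0.73%, and within chromosomes 27.7% were. HPC differed: of its contacts in this class, 33 of 82 were in Ery Luc, or 40.2%, against 25.6% within chromosomes. Of these 82, 52.4% lay in the blocks set out below. Low-scoring contacts thus rarely recurred for the Ery lists but often did for HPC. Of Ery shStag2 contacts scoring 20 or more, 285 of 333 were in Ery Luc, or 85.6%, against 97.8% within chromosomes. Of the Ery Luc contacts scoring 20 or more, 62.2% were in HPC, against 91% within chromosomes. Of those of HPC 94.6% were in Ery Luc, against 99.4% within chromosomes. Strong contacts between chromosomes were thus mostly shared, though less often than strong contacts within chromosomes. In all, 292 pairs were in the 3 lists, with median scores of 44 in Ery shStag2, 45.7 in Ery Luc and 31.1 in HPC. Pairs held by 1 list alone numbered 8988 for Ery shStag2, 8007 for Ery Luc and 82 for HPC.

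**Figure D1:**
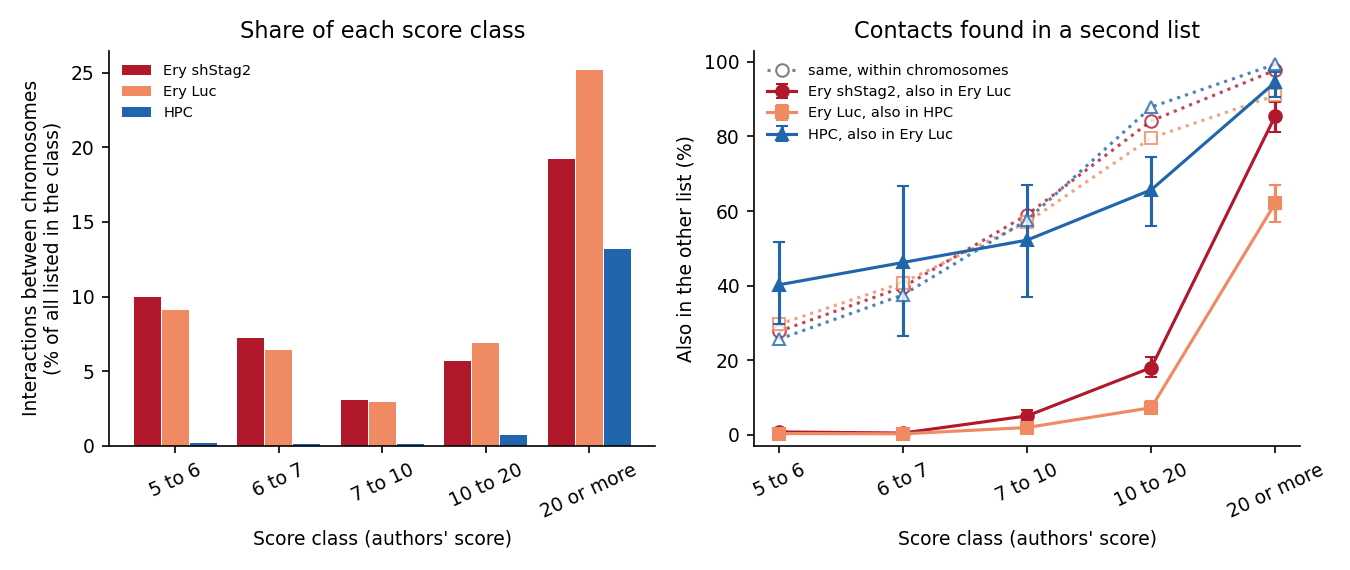
Left, bars give the share of all listed interactions in each score class that lie between chromosomes, for Ery shStag2, Ery Luc and HPC. Right, filled points with exact 95% intervals give the share of contacts between chromosomes also held by a second list, and open points on dotted lines the same for contacts within chromosomes. For the Ery lists the share of the lowest class lies under 1% and that of the highest class is 85.6% in Ery shStag2 and 62.2% in Ery Luc.

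Contacts lay in clusters on the genome as well as singly. A block was set as 5 or more contacts of 1 chromosome pair, with at least 2 fragments on each side, linked where both ends lie within 500 kb. There were 26 blocks in Ery shStag2, 24 in Ery Luc and 12 in HPC. They held 575 contacts in Ery shStag2 (6.01%), 1040 in Ery Luc (12.1%) and 265 in HPC (57%). Median scores in blocks were 12.8 in Ery shStag2, 11.9 in Ery Luc and 21.4 in HPC, against 5.81, 5.78 and 11.5 outside them, in the same order of lists. Of the contacts scoring 20 or more, 65.8% lay in blocks in Ery shStag2, 73.8% in Ery Luc and 69% in HPC. Among such contacts outside blocks, 74.6% of those of Ery shStag2 were in Ery Luc. For Ery Luc, 50.5% of them were in HPC, and for HPC 88.9% were in Ery Luc. Blocks of the 3 lists merged into 31 region pairs, and 25 of these had contacts in all 3 lists. Both Ery lists had more contacts than HPC in 23 of the 31. Ery shStag2 had more than Ery Luc in 14, fewer in 12 and the same number in 5.

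**Figure D2:**
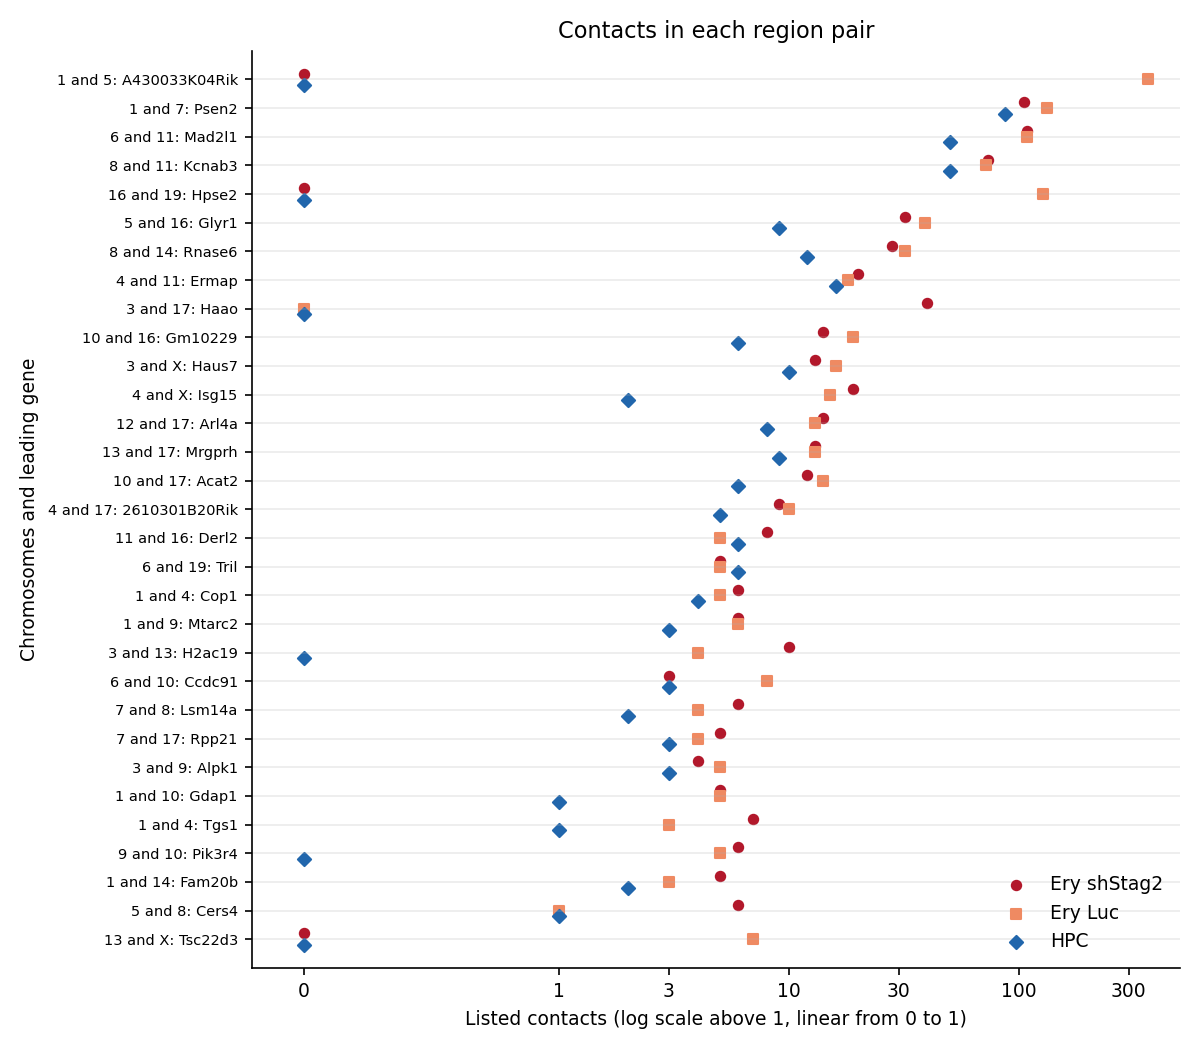
Each line is 1 of the 31 region pairs, named by its chromosomes and a leading gene, and points give the number of listed contacts in Ery shStag2, Ery Luc and HPC on an axis that is logarithmic above 1. The pair of chromosomes 1 and 5 has 0, 365 and 0 contacts, that of 3 and 17 has 40, 0 and 0, and the pair led by Mad2l1 has 108, 108 and 50.

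In 22 of the 31 region pairs, 1 side was no wider than 2 fragments while the other spanned 31.7 to 3060 kb. Of these 22 pairs, 20 had contacts in all 3 lists. The narrow fragment of the strongest contact was captured in 6 pairs and not captured in 16, where several promoters of the wide side each reached the same narrow place. Whether rearranged chromosomes or the placement of reads had a part in these pairs was not tested. The 4 of these pairs with most contacts are described next, with their scores in each list.

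A captured fragment at chr7:15825596-15829869, with no protein-coding gene start or end on it, made contacts along 1710 kb of chromosome 1 around Itpkb, the gene of a kinase of inositol trisphosphate. The region pair held 105 contacts in Ery shStag2, 133 in Ery Luc and 87 in HPC. Its strongest contact, with chr1:180345640-180352048 inside Itpkb, scored 618.63 in Ery shStag2, 759.25 in Ery Luc and 549.38 in HPC. Within 100 kb of that place the median score was 64.5 in Ery shStag2, 96.2 in Ery Luc and 73.6 in HPC, and farther out it was 5.39, 6.02 and 5.84. Scores thus formed a peak with tails on both sides, at the same fragment in the 3 lists. From the side of chromosome 1, the promoter fragment of Psen2, a presenilin of gamma-secretase, reached the same fragment with a score of 56.38 in Ery shStag2, 91.85 in Ery Luc and 126.36 in HPC.

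The Mad2l1 fragment at chr6:66534905-66540307 carries the promoter of the spindle checkpoint protein Mad2. It reached a stretch of chromosome 11 from 45141641 to 48203765 that holds Med7, which encodes a Mediator subunit. The region pair held 108 contacts in Ery shStag2, 108 in Ery Luc and 50 in HPC. The peak, at chr11:46658914-46659335 and outside any protein-coding gene, scored 850.71 in Ery shStag2, 679.21 in Ery Luc and 298.17 in HPC. Contacts ran to 1510 kb below and 1540 kb above the peak in Ery shStag2, to 1310 and 1490 kb in Ery Luc and to 424 and 537 kb in HPC. Ery lists thus held more contacts of the same promoter and over a wider stretch, with the peak at the same fragment. Among 20 genes of mitosis and the spindle checkpoint, Mad2l1 alone had a contact in HPC.

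The fragment of Kcnab3, a beta subunit of potassium channels (chr11:69329193-69341496), reached the carboxylesterase cluster of chromosome 8. Its region pair held 73 contacts in Ery shStag2, 72 in Ery Luc and 50 in HPC. The contact with chr8:93383064-93384393 scored 546.4 in Ery shStag2, 458.27 in Ery Luc and 239.56 in HPC. The contact with the fragment of Ces1h at chr8:93377572-93382657 scored 312.18 in Ery shStag2, 287.8 in Ery Luc and 384.24 in HPC. The Ces1h fragment also met the fragment next to that of Kcnab3, with Chd3 on it (chr11:69341497-69346181). That contact scored 330.31 in Ery shStag2, 386.38 in Ery Luc and 203.87 in HPC. HPC was thus highest for the Kcnab3 fragment and lowest for the Chd3 fragment. Contacts came in a close group: in Ery shStag2 48 of 70 contacts of the Kcnab3 fragment lay within 100 kb of the peak, in Ery Luc 44 of 68 and in HPC 39 of 49.

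Rogdi and Glyr1 share a fragment at chr16:5013070-5015114, with the Rogdi promoter printed above. Glyr1 encodes a nucleosome-binding cofactor of a histone demethylase. The fragment reached chromosome 5 between 92307185 and 92822772, where Scarb2, a receptor of the lysosomal membrane, Fam47e and Stbd1 lie. The region pair held 32 contacts in Ery shStag2, 39 in Ery Luc and 9 in HPC, and the 9 of HPC were all from 1 fragment and so made no block. The contact with chr5:92537379-92540539 was the strongest of both Ery lists and scored 170.29 in Ery shStag2, 145.84 in Ery Luc and 51.61 in HPC. The strongest contact of HPC scored 99.64 and lay at another fragment, that of Fam47e (chr5:92545528-92558393).

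**Figure D3:**
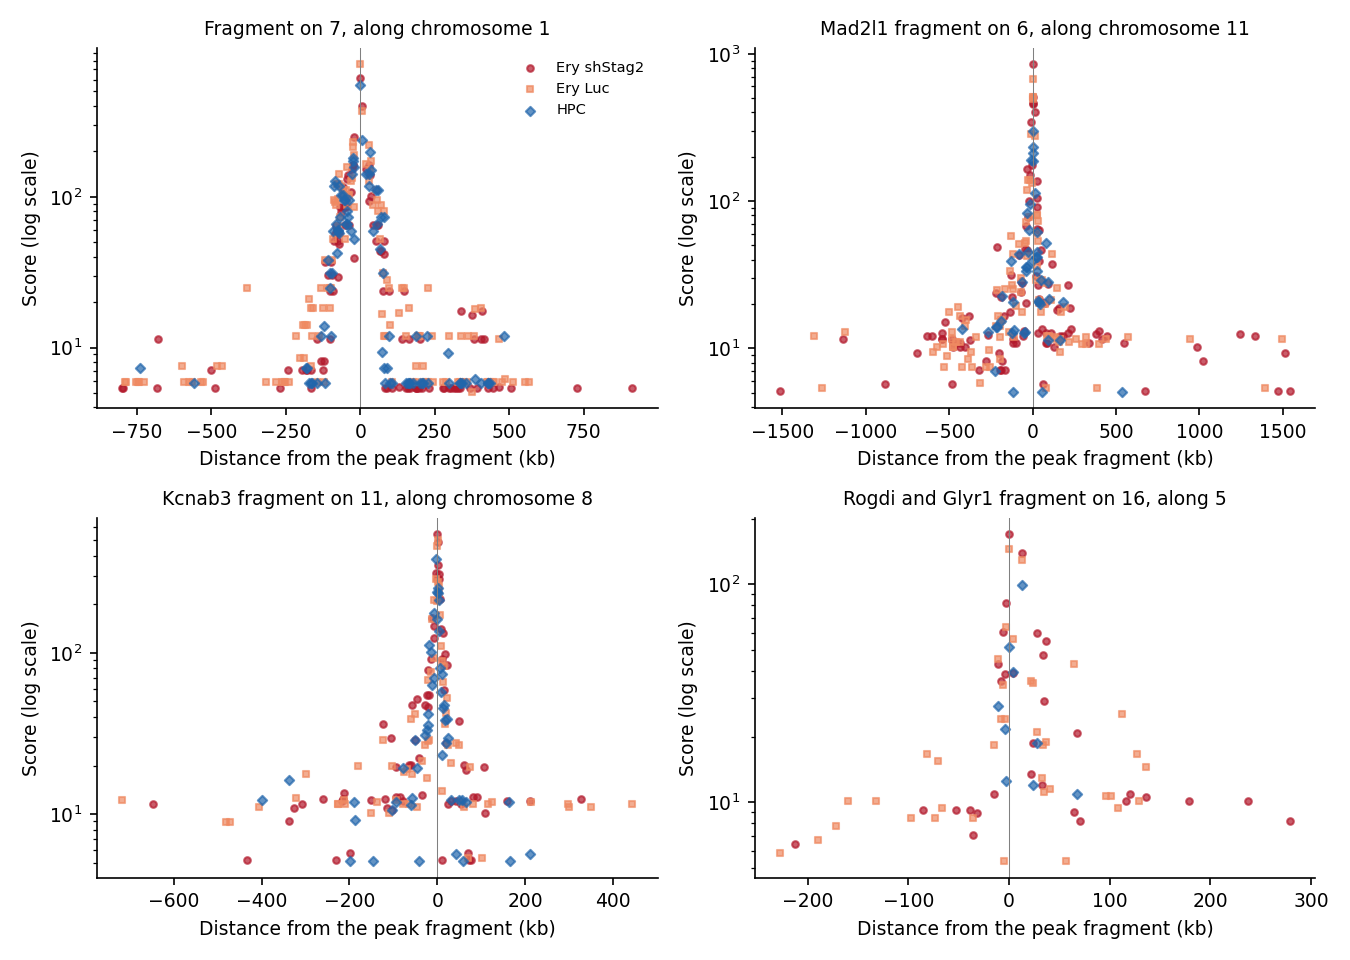
Score, on a logarithmic axis, against distance in kb from the peak fragment for 4 captured fragments, with points for Ery shStag2, Ery Luc and HPC. Scores are highest near 0 and lower on both sides, and contacts of the Mad2l1 fragment reach 1540 kb in Ery shStag2, 1490 kb in Ery Luc and 537 kb in HPC above the peak.

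Other region pairs, whose narrower side held 2 to 5 fragments, joined neighbouring promoters with 1 place elsewhere. Promoters of the secreted ribonuclease genes Rnase6 and Rnase1 and of Eddm3b on chromosome 14 reached chromosome 8 inside Hmgxb4, with 28 contacts in Ery shStag2, 32 in Ery Luc and 12 in HPC. A stretch of chromosome 4 from Ermap, a blood group gene of the red cell membrane, past Cldn19 and Rimkla reached chromosome 11 inside Pemt, with 20 contacts in Ery shStag2, 18 in Ery Luc and 16 in HPC. Its strongest contact was that of Rimkla, with a score of 119.25 in Ery shStag2, 139.35 in Ery Luc and 82.67 in HPC. Ermap itself had 2 contacts between chromosomes in Ery shStag2, 0 in Ery Luc and 0 in HPC. A keratin-associated protein cluster of chromosome 16 around Krtap6-5 reached chromosome 10 with 14 contacts in Ery shStag2, 19 in Ery Luc and 6 in HPC. A place on chromosome 12 led by Arl4a, a small GTPase gene, reached the major histocompatibility region of chromosome 17 near Rpp21, H2-T23 and Trim39. The region pair held 14 contacts in Ery shStag2, 13 in Ery Luc and 8 in HPC. The Arl4a fragment took part in 16 of its 19 fragment pairs. Chromosome 17 near Acat2, Wtap and Sod2, the mitochondrial superoxide dismutase, reached chromosome 10 with 12 contacts in Ery shStag2, 14 in Ery Luc and 6 in HPC. On X, the region of Haus7, an augmin subunit of the spindle, faced that of Ank2 on chromosome 3. This region pair held 13 contacts in Ery shStag2, 16 in Ery Luc and 10 in HPC. The Haus7 fragment took part in 11 of its 22 fragment pairs. The strongest contact joined another fragment of X, without a protein-coding gene start or end, to a fragment inside Ank2. It scored 511.94 in Ery shStag2, 384.75 in Ery Luc and 265.47 in HPC. These 6 pairs had contacts in every list, and HPC had the fewest in each.

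Some of the strongest contacts lay outside the region pairs. Treml1, a receptor gene of platelets, at chr17:48359246-48368671, faced chr11:19493588-19494302 with a score of 844.89 in Ery shStag2, 797.65 in Ery Luc and 363.94 in HPC. Apart from this partner, Treml1 had 1 contact in Ery shStag2, 1 in Ery Luc and none in HPC. Spata3, on chromosome 1, faced the fragment of Zfp617 on chromosome 8 with a score of 439.09 in Ery shStag2, 622.42 in Ery Luc and 278.46 in HPC. A fragment with no gene at chr16:71018106-71021264 faced chr2:9260657-9266284 with a score of 594.72 in Ery shStag2, 604.01 in Ery Luc and 235.25 in HPC. It also met the next fragment, chr2:9258644-9260656, with 401.33 in Ery shStag2, 317.6 in Ery Luc and 230.2 in HPC. Each of these contacts scored lowest in HPC. Scores come from lists whose depth is not given, so their sizes were not compared as contact strength between lists. Of the 292 pairs in all lists, 222 lay in the region pairs and 70 outside them.

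In 3 region pairs, both sides were wide and contacts were held by 1 list alone. The largest joined chr1:127771995-128902228 with chr5:137773423-139154835 and had 0 contacts in Ery shStag2, 365 in Ery Luc and 0 in HPC. These 365 contacts are 4.26% of all contacts between chromosomes in Ery Luc. On chromosome 5 the fragment of A430033K04Rik (chr5:138620014-138625253) led with 82 contacts. It was followed by Zfp157, a zinc finger gene, with 36, by Lamtor4, a subunit of the lysosomal Ragulator, with 31, by Gal3st4 and Map11 with 31, and by the fragment of Gal3st4, Gpc2 and Stag3 with 22. On chromosome 1 the fragment of Mcm6 (chr1:128354975-128359829) led with 21. Mcm6 encodes a subunit of the replicative helicase and Stag3 the meiotic relative of Stag2. Cxcr4, the chemokine receptor gene that holds progenitors in the marrow, had 0 contacts between chromosomes in Ery shStag2, 11 in Ery Luc and 0 in HPC.

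Contacts of this pair lay in a pattern around its strongest contact, which joined chr1:128725084-128725283 and chr5:138355604-138369970 with a score of 67.09. With both axes set to 0 there, 215 contacts lay below it on chromosome 1 and above it on chromosome 5. Another 127 lay above it on chromosome 1 and below it on chromosome 5. The other quadrants held 0 and 1, and 22 lay on an axis. Scores within 100 kb of that place had a median of 13.9, and those beyond 500 kb 6.78. Contacts therefore filled 2 opposite quadrants, with the higher scores near their corner.

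The second such pair joined chr16:96131852-97379652 with chr19:43206746-43989842 and had 0 contacts in Ery shStag2, 127 in Ery Luc and 0 in HPC. Hpse2, a heparanase relative, and Get1, a receptor for tail-anchored membrane proteins, led with 31 contacts each, followed by Lca5l with 19 and Igsf5 with 16. Of the 127, 90 lay above the strongest contact on both chromosomes, 32 on an axis, and 4, 1 and 0 in the other quadrants, so that here a single quadrant was filled. The strongest contact joined the Get1 fragment (chr16:96135481-96149827) to chr19:43208548-43209865 inside Hpse2, with a score of 72.61.

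The third pair joined chr3:132759910-133654386 with chr17:83808026-84376109 and had 40 contacts in Ery shStag2, 0 in Ery Luc and 0 in HPC. Of these 40, 27 came from the captured fragment of Haao, an enzyme of tryptophan breakdown (chr17:83846640-83852754). On an axis through the strongest contact lay 31 of the 40, so this pair rested mainly on 1 fragment and filled no quadrant. Tet2, which encodes a dioxygenase of 5-methylcytosine and is often mutated in human myeloid disease, had 6 contacts between chromosomes in Ery shStag2, 0 in Ery Luc and 0 in HPC. Ppa2, a mitochondrial pyrophosphatase gene, had the strongest contact, to the Haao fragment, with a score of 36.46. A single list, pooled from 2 libraries, stands behind each of these 3 pairs, and whether both libraries held them was not tested. Whether chromosomes are rearranged in these cultures was not tested either, and joined chromosomes would also be listed as contacts between chromosomes. As Ery Luc is set against both other lists, its pairs enter both comparisons.

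**Figure D4:**
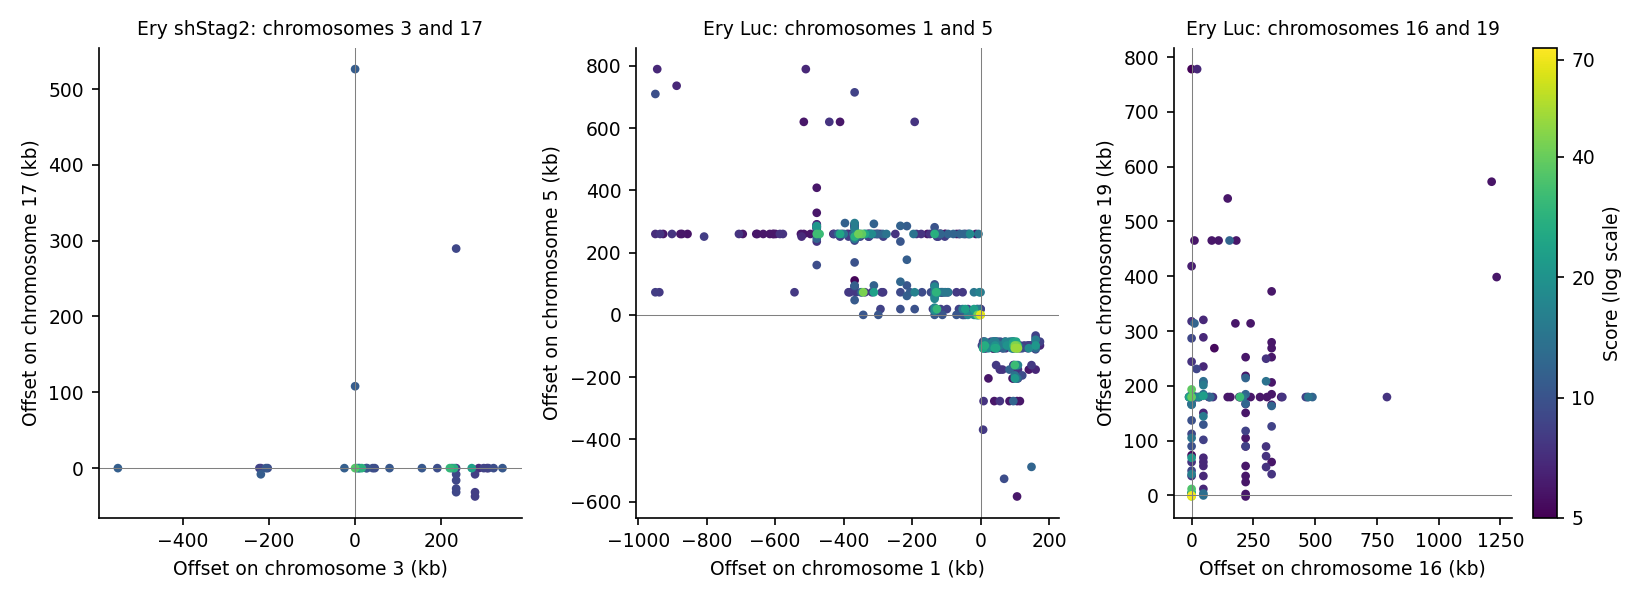
Each point is a listed contact of a wide region pair, placed by its offset in kb from the strongest contact on each chromosome and coloured by score on a logarithmic scale. Left is the pair of chromosomes 3 and 17 in Ery shStag2 with 40 contacts, then those of 1 and 5 with 365 and of 16 and 19 with 127 in Ery Luc, which fill 2 opposite quadrants and 1 quadrant.

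Contacts outside blocks were also counted by chromosome pair. For each pair of chromosomes, the count was set over the count that the 2 chromosomes' own totals give. All 190 chromosome pairs had a contact outside blocks in both Ery lists, and the ratio had a median of 0.991 in Ery shStag2 and 0.966 in Ery Luc. The highest ratio in Ery Luc was 3.18, for 16 and 19, with 40 contacts. For the same pair the ratio was 1.03 in Ery shStag2, with 16 contacts. Chromosomes 1 and 5 had a ratio of 1.19 in Ery shStag2 and 2.21 in Ery Luc. Chromosomes 3 and 17 had a ratio of 1.29 in Ery shStag2 and 0.802 in Ery Luc, and were not among the 3 chromosome pairs over 1.5 in Ery shStag2. HPC had contacts outside blocks for 91 chromosome pairs, and its ratios rest on few contacts and are left out.

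Chromosomes 13 and X had 28 contacts in Ery shStag2, 114 in Ery Luc and 0 in HPC, and the ratio outside blocks was 0.883 in Ery shStag2 and 2.84 in Ery Luc. Of the 114 of Ery Luc, 93 had their X end beyond 130 Mb, which is 81.6%, while of X contacts with other chromosomes in that list 27.8% did. In Ery shStag2 these shares were 39.3% and 28.3%. The contacts of Ery Luc had a median score of 5.63 and involved 97 captured fragments, so they were many, low in score and gathered at 1 end of X. Only 7 of them formed a region pair, led by Tsc22d3, a glucocorticoid-induced gene of X, with 0 contacts in Ery shStag2, 7 in Ery Luc and 0 in HPC.

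Chromosomes 8 and 9 stood out in both Ery lists, with a ratio of 1.74 in Ery shStag2 and 1.81 in Ery Luc. The counts outside blocks were 97 in Ery shStag2, 77 in Ery Luc and 4 in HPC. Of these contacts, 73.2% in Ery shStag2 and 63.6% in Ery Luc had their chromosome 8 end in the first 60 Mb, against 43.6% and 44.6% of contacts of chromosome 8 with other chromosomes. On chromosome 9 the first 60 Mb held 67% of the ends in Ery shStag2 and 72.7% in Ery Luc, against 56.4% and 54.5%. Of the 97 contacts of Ery shStag2 and the 77 of Ery Luc, 5 fragment pairs were in both lists. Over all contacts outside blocks, 2.27% of those of Ery shStag2 were in Ery Luc, and 2.8% the other way. The same broad stretches of 60 Mb thus recurred. Most fragment pairs did not, which held for contacts outside blocks in general.

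**Figure D5:**
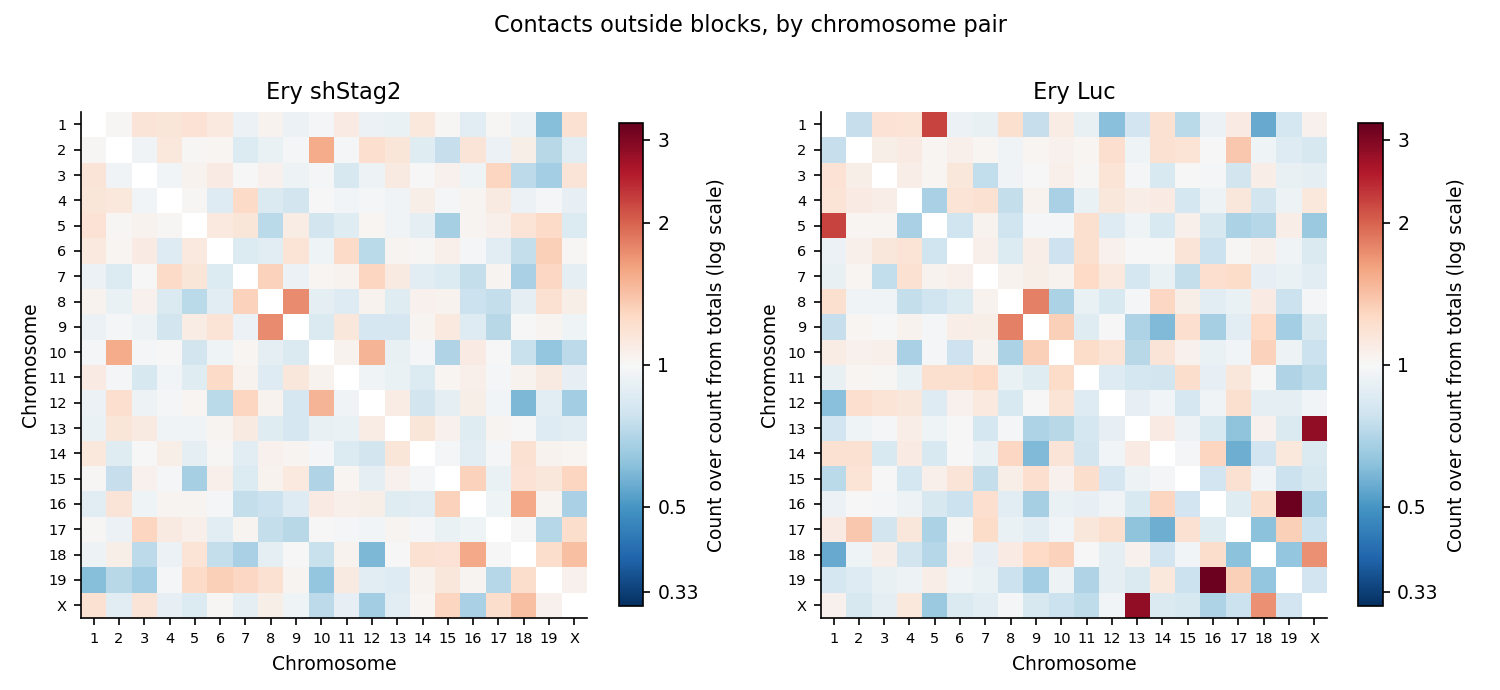
Colour gives, for each pair of chromosomes, the number of contacts outside blocks over the number that the chromosomes' totals give, on a logarithmic scale, for Ery shStag2 (left) and Ery Luc (right). The pair 8 and 9 is at 1.74 and 1.81, and the pairs 16 and 19, 13 and X, and 1 and 5 are at 1.03, 0.883 and 1.19 in Ery shStag2 and reach 3.18, 2.84 and 2.21 in Ery Luc.

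Of the gene lists counted, histone genes had the highest share of contacts with members of the same list on both ends. Replication-dependent histone genes lie in a large cluster on chromosome 13 and a smaller one on chromosome 3. The count of both ends was added after values were seen. Contacts with both ends within 100 kb of a linker or core histone gene numbered 11 in Ery shStag2, 5 in Ery Luc and 0 in HPC, and every one joined chromosome 3 to chromosome 13. Of contacts whose captured end lay near a histone gene, 23.4% in Ery shStag2 and 13.9% in Ery Luc had the far end near one on another chromosome. Over all contacts the far end lay near a histone gene in 0.157% in Ery shStag2 and 0.117% in Ery Luc. HPC had 4 contacts with a captured end near a histone gene, so its 0 allows little to be read.

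The fragment of H2ac19 and H3c15, genes of histones H2A and H3 (chr3:96238016-96241161), took part in 3 of the 11 contacts of Ery shStag2 and 4 of the 5 of Ery Luc. It met the fragment of the histone H4 gene H4c2 (chr13:23754564-23757001) with a score of 10.16 in Ery shStag2 and 7.73 in Ery Luc, the 1 pair that both lists held. The strongest contact, 12.68 in Ery shStag2, joined the fragments of H4c14 (chr3:96262329-96267647) and H3c6 (chr13:23556443-23566616). H4c14 met the linker histone gene H1f3 (chr13:23554552-23555079) with 8.02. In Ery Luc, H4c6 (chr13:23549935-23553812) met the fragment of H2ac19 and H3c15 with 5.47, and H2ac4 met that of H2ac18 and H3c14 with 8.83. Fragments on either side thus met several partners of the other cluster at low scores. Histone genes share sequence, and the sources used here do not say how reads of such copies were placed, so these contacts are uncertain.

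The linker histone gene of the testis, H1f6 (chr13:23693035-23696344), did something else. It had 8 contacts in Ery shStag2, 9 in Ery Luc and 3 in HPC, all with chromosome 4 between 145441915 and 147774991, a stretch with zinc finger genes such as Zfp993 and Zfp979. Its highest score was 48.84 in Ery shStag2, 20.85 in Ery Luc and 27.99 in HPC. Of the 58 histone genes on captured fragments, 23 had a contact in Ery shStag2, 26 in Ery Luc and 3 in HPC, or 39.7%, 44.8% and 5.17%. Over all genes on captured fragments the shares were 32.9% in Ery shStag2, 28.9% in Ery Luc and 1.09% in HPC.

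Captured fragments with many partners were few. Of 21016 captured fragments, 6901 had a partner on another chromosome in Ery shStag2, 6073 in Ery Luc and 222 in HPC. Exactly 1 partner was held by 75% of these in Ery shStag2, 77.1% in Ery Luc and 75.7% in HPC. At least 5 partners were held by 71 fragments in Ery shStag2, 64 in Ery Luc and 6 in HPC. The order of the Ery lists turned at a score of at least 7, with 17 in Ery shStag2 and 33 in Ery Luc, and for 10 or more partners, with 7 in Ery shStag2 and 24 in Ery Luc. All 6 of HPC also had at least 5 in both Ery lists, and Ery shStag2 and Ery Luc shared 23, which is 32.4% of those of Ery shStag2 and 35.9% of those of Ery Luc. Among those with at least 5, partners lay on 4 or more chromosomes for 51 in Ery shStag2, 23 in Ery Luc and 0 in HPC, and on 1 chromosome for 9 in Ery shStag2, 24 in Ery Luc and 4 in HPC. Fragments with scattered partners were thus found in Ery lists, and in HPC they faced 1 or a few chromosomes.

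Between Ery Luc and HPC, 55 captured fragments had at least 5 more partners in Ery Luc, which is 0.899% of the 6119 with a partner in either list, and 0 had at least 5 fewer, which is 0%. In HPC only 6 fragments had 5 or more partners, so few could have lost as many and the 0 allows little to be read. Between Ery shStag2 and Ery Luc, 18 had at least 5 more in Ery shStag2 and 29 at least 5 fewer, which is 0.171% and 0.276% of 10504. Without the blocks 14 fragments had at least 5 more in Ery shStag2 and 4 at least 5 fewer, so that the direction turned.

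Outside blocks the partners of a fragment were mostly scattered and weak. Mroh2a, on chromosome 1, led with 12 partners in Ery shStag2, 6 in Ery Luc and 1 in HPC. In Ery shStag2 these lay on 4 chromosomes, most of them on chromosome 4, with a median score of 5.7. A fragment without a gene at chr11:26332346-26337796 had 9 partners in Ery shStag2, 8 in Ery Luc and 0 in HPC, on 8 chromosomes in both Ery lists, and none of the partner fragments was the same. Olfr843, an olfactory receptor gene of chromosome 9, had 7 in Ery shStag2, 10 in Ery Luc and 0 in HPC. Cast, which encodes the calpain inhibitor calpastatin, had 7 in Ery shStag2, 1 in Ery Luc and 0 in HPC, with scores up to 6.48 in Ery shStag2.

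Other fragments with many partners met the same ones again. Cd244a, a receptor gene of natural killer cells, had 6 partners in Ery shStag2, 9 in Ery Luc and 1 in HPC. These were scattered too, over 6 chromosomes in Ery shStag2 and 8 in Ery Luc. Its contact with chr14:90084435-90087987 scored 201.19 in Ery shStag2, 170.05 in Ery Luc and 110.1 in HPC. Eif5, a translation initiation factor gene of chromosome 12, had 7 partners in Ery shStag2, 7 in Ery Luc and 4 in HPC, all on chromosome 10 and, but for 1 in Ery Luc, close to Gm1553. Its highest score was 33.4 in Ery shStag2, 60.25 in Ery Luc and 24.01 in HPC.

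Contacts outside blocks differed from contacts within chromosomes in what they joined. Far ends had a median length of 2310 bases in Ery shStag2, 2250 in Ery Luc and 2440 in HPC, against 3060, 3150 and 2910 within chromosomes. They overlapped a protein-coding gene in 37.3% in Ery shStag2, 37.6% in Ery Luc and 40% in HPC, against 69.8%, 70.8% and 71.9%. The far end was captured too in 1.28% in Ery shStag2, 1.49% in Ery Luc and 1% in HPC, against 19.8%, 20.9% and 21.5% within chromosomes. Over all contacts between chromosomes, with those in blocks, it was captured in 1.57% in Ery shStag2, 1.9% in Ery Luc and 4.3% in HPC. Far ends were thus shorter and less often genic than within chromosomes, and they were less often captured. In Ery shStag2 and Ery Luc 2313 captured fragments had such a contact in both lists, which is 34.3% of those of Ery shStag2 and 39.3% of those of Ery Luc. Of all captured fragments in the list of Ery shStag2, 26.3% had such a contact in Ery Luc, and of all in the list of Ery Luc, 29.9% had one in Ery shStag2.

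Genes were counted next, as protein-coding genes with a start or end on a captured fragment. Of 16715 such genes, 5502 had at least 1 contact between chromosomes in Ery shStag2 (32.9%), 4823 in Ery Luc (28.9%) and 182 in HPC (1.09%). Between Ery Luc and HPC, 1071 genes had at least 2 more contacts in Ery Luc (6.41%) and 1 had at least 2 fewer (0.00598%). At most the 182 genes with a contact in HPC could have had fewer in Ery Luc, so this direction had little room. Between Ery shStag2 and Ery Luc, 884 had at least 2 more in Ery shStag2 (5.29%) and 609 at least 2 fewer (3.64%). The gene lists below are read against these shares.

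Of the erythroid lists, transcription factors and red cell membrane genes lay below the share over all genes in both Ery lists. Genes of globin, heme and iron lay near it in Ery shStag2. These lists are small, with 13, 16 and 21 genes, so their places rest on few genes. Of 13 erythroid transcription factor genes, 2 had a contact in Ery shStag2, 1 in Ery Luc and 0 in HPC: Bcl11a and Sox6, each with 1 in Ery shStag2, and Ikzf1 with 1 in Ery Luc. Of 21 genes of globin, heme and iron, 7 had one in Ery shStag2 (33.3%), 5 in Ery Luc (23.8%) and 0 in HPC. The alpha-globin gene Hba-a1 had 0 in Ery shStag2, 2 in Ery Luc and 0 in HPC, with a highest score of 6.56. The embryonic globin gene Hbb-bh1 had 2 in Ery shStag2, 1 in Ery Luc and 0 in HPC. Of 16 red cell membrane genes, 4 had one in Ery shStag2, 3 in Ery Luc and 0 in HPC, among them Ank1, the red cell ankyrin gene, with 0 in Ery shStag2, 3 in Ery Luc and 0 in HPC.

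Stem and progenitor regulators lay below the share over all genes in both Ery lists, and myeloid, mast cell and basophil genes above it. Of 18 stem and progenitor regulators, 4 had a contact in Ery shStag2, 3 in Ery Luc and 0 in HPC, with Tet2 and Cxcr4 in front through the region pairs above. Of 14 myeloid genes, 6 had one in Ery shStag2 (42.9%), 5 in Ery Luc (35.7%) and 0 in HPC. Prtn3, proteinase 3 of neutrophils, had 4 in Ery shStag2, 1 in Ery Luc and 0 in HPC, with scores up to 12.07 and 5.36 in the Ery lists. Of 11 mast cell and basophil genes, 7 had one in Ery shStag2 (63.6%), 4 in Ery Luc (36.4%) and 0 in HPC. Gata3 had 2 in Ery shStag2, 1 in Ery Luc and 0 in HPC. With 18, 14 and 11 genes in these lists, each gene moves a share by much, so their places above or below rest on few genes.

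Among cohesin and cell-cycle genes the highest counts lay in region pairs, and other members had contacts outside blocks. Of 16 cohesin and Ctcf genes, 2 had a contact in Ery shStag2, 3 in Ery Luc and 0 in HPC. Stag3 had 2 in Ery shStag2, 23 in Ery Luc and 0 in HPC, and Hdac8, the deacetylase of the cohesin subunit Smc3, had 3 in Ery shStag2, 4 in Ery Luc and 0 in HPC. Of 19 genes of replication licensing and S phase, 4 had one in Ery shStag2, 5 in Ery Luc and 0 in HPC, with Mcm6 at 0, 22 and 0 and Mcm7 at 2, 4 and 0 in Ery shStag2, Ery Luc and HPC. Of 20 genes of mitosis and the spindle checkpoint, 7 had one in Ery shStag2, 5 in Ery Luc and 1 in HPC. Outside blocks Stag3 had 2 in Ery shStag2, 1 in Ery Luc and 0 in HPC, and Mcm6 had 0, 1 and 0.

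Large gene families lay on both sides of the share over all genes. Of 33 Hox genes, 14 had a contact in Ery shStag2 (42.4%), 16 in Ery Luc (48.5%) and 0 in HPC. Of 83 cytosolic ribosomal protein genes, 24 had one in Ery shStag2 (28.9%), 21 in Ery Luc (25.3%) and 3 in HPC (3.61%). Of 799 olfactory receptor genes, 329 had one in Ery shStag2 (41.2%), 276 in Ery Luc (34.5%) and 8 in HPC (1%). Olfactory receptor genes of different chromosomes are known to gather in olfactory neurons. Contacts with both ends within 100 kb of one numbered 13 in Ery shStag2, 11 in Ery Luc and 0 in HPC. That is 2.11% in Ery shStag2 and 2.09% in Ery Luc of contacts with a captured end near such a gene, where over all contacts 1.63% and 1.48% of far ends lay near one. Of 89 vomeronasal receptor genes, 37 had a contact in Ery shStag2, 29 in Ery Luc and 0 in HPC. Of 51 protocadherin and cadherin genes, 20 had one in Ery shStag2, 22 in Ery Luc and 1 in HPC. Of 324 solute carrier genes, 112 had one in Ery shStag2 (34.6%), 97 in Ery Luc (29.9%) and 0 in HPC. Of 257 zinc finger genes named Zfp, 84 had one in Ery shStag2 (32.7%), 61 in Ery Luc (23.7%) and 0 in HPC, and Zfp157 led with 1 in Ery shStag2, 40 in Ery Luc and 0 in HPC, mostly through the pair of chromosomes 1 and 5.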

How the data were processed

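Promoter capture Hi-C lists of 3 conditions were used. Per the labels' protocols, chromatin was cut with HindIII and promoter fragments were captured with hybridisation beads. The deposited lists give pairs of fragments with a score, the authors' own, from 5 upwards, and each list pools 2 libraries. The build is mm10, per the submitters' processing notes. The sources used here give no scoring software, depth or read placement, so precision beyond counting error is unknown. Chromatin immunoprecipitation and RNA-seq were not used here.

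Contacts were counted in Python 3.11.15 with pandas 2.3.3, numpy 2.4.6 and scipy 1.17.1. Fragments in the first column of any list were called captured. A pair was shared when both fragments were identical, listed from either end. Genes came from the RefSeq table of GRCm38.p6, by a start or end on the fragment. Block finding was checked on simulated data. Genes were named from up to 5 leading captured fragments of the 3 largest blocks of each list, the 8 fragments with most partners outside blocks per list, the 10 contacts of all 3 lists with the highest lowest score and up to 3 leading members of each gene list. Other genes and chromosome pairs named were chosen after their values were seen. Members and lists were chosen with earlier results of these data known. Alternatives were a score of at least 7 or 10, contacts without blocks, nearby ends as shared, other block settings and other ways to count partners.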

Additional observations from a re-analysis of the deposited data

Results flagged for a closer look

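Contacts with an unplaced scaffold or chromosome Y were left out of every comparison but were listed, 183 in Ery shStag2, 211 in Ery Luc and 61 in HPC. Most joined chromosome 4 to a scaffold assigned to it, with 114 in Ery shStag2, 143 in Ery Luc and 45 in HPC. Chromosome Y took part in 9 in Ery shStag2, 9 in Ery Luc and 0 in HPC. Their median score was 11.2 in Ery shStag2, 10 in Ery Luc and 10.7 in HPC.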

How the results depend on the processing

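Values are given for Ery shStag2, Ery Luc and HPC in this order. Of 65 alternative values of the main results, 16 stayed within their counting interval or 1.5 times the main count and 49 moved, and of 19 other values 4 stayed and 15 moved. The cause was not tested. The share of interactions between chromosomes was 4.44%, 4.86% and 0.758% at a score of at least 7, 7.11%, 8.69% and 1.88% at a score of at least 10, and 6.91%, 6.18% and 0.179% without blocks. At both higher scores Ery Luc stood above Ery shStag2. With both ends within 1 Mb, within 50 kb, at a score of at least 7, at a score of at least 10 and without blocks, Ery Luc pairs were in HPC for 8.58%, 6.62%, 14.4%, 22.9% and 1.21%. Under the same settings HPC pairs were in Ery Luc for 88.6%, 85.8%, 80.4%, 84.6% and 58.5%. Ery shStag2 pairs were in Ery Luc for 10.5%, 8.01%, 22.5%, 37.6% and 2.27%, and Ery Luc pairs in Ery shStag2 for 12%, 9.36%, 22%, 34.2% and 2.8%. With at least 10 contacts there were 14, 14 and 6 blocks.

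Captured fragments with at least 5 partners numbered 17 in Ery shStag2 and 33 in Ery Luc at a score of at least 7, and 29 in Ery Luc and 1 in HPC without blocks. With 10 or more partners there were 7, 24 and 3. Counting partner regions of 1 Mb gave 21 in Ery Luc and 0 in HPC. Fragments with at least 5 more partners in Ery Luc than in HPC numbered 28 at a score of at least 7, 26 without blocks and 22 with a difference of 10, and 1 had fewer without blocks. That 1 is the fragment of Rogdi and Glyr1, whose Ery Luc contacts form a block while those of HPC do not. With all contacts it had 38 partners in Ery Luc and 9 in HPC. Between Ery shStag2 and Ery Luc, 2 had more at a score of at least 7 and 1 with a difference of 10, while 4 had fewer without blocks and 18 with a difference of 10. Genes with a contact were 1337, 1109 and 138 at a score of at least 7. The alternatives for these genes and for the differences in partners were chosen after seeing the data. No paired analysis was possible because each list pools its libraries, and for the same reason no replicate could be left out.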
